A study of Mus musculus with 4 samples.

Results

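The SOX family of transcription factors was examined in SOX7::GFP high cells and SOX7::GFP low cells sorted from *iSox7* bone marrow cultures. Its 10 members were the *Sox* genes listed for this purpose, *Sox4*, *Sox5*, *Sox6*, *Sox7*, *Sox8*, *Sox11*, *Sox12*, *Sox13*, *Sox17* and *Sox18*, each read through the probe sets that the platform annotation gives to that gene alone. A probe set is a small group of probes against one stretch of a transcript, and an exon array carries several for each gene. The members had 176 of the 321091 probe sets named for a single gene, and all 10 were among the 18762 genes tested.

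Bone marrow cells of mice that carry a doxycycline-inducible SOX7 and GFP cassette (*iSox7*) were passaged on irradiated OP9, a mouse bone marrow stromal line, with Kit ligand, interleukin-7 and FLT3. After 10 to 12 passages, SOX7::GFP high cells and SOX7::GFP low cells were separated by sorting for SOX7::GFP and cKIT level, and RNA of each subpopulation was hybridized to 2 Affymetrix mouse exon arrays. Both groups carried the same cassette and came from the same kind of co-culture, and the study describes both subpopulations within cultures given doxycycline. The design text of the series contrasts doxycycline with none, but the arrays were grouped here by their labelled SOX7 level, and the labels do not give the doxycycline state of each array. The labels name bone marrow cells but also a cell line of embryonic stem cell origin, and give neither age nor strain. The study calls the arrays biological duplicates, but no source used here says whether they came from separate cultures or animals, and p-values reflect the spread between these arrays alone.

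SOX proteins bind DNA through a high mobility group domain and are placed in subgroups by sequence. The SOXF factors (*Sox7*, *Sox17*, *Sox18*) act in blood vessel formation and in the haemogenic endothelium that gives rise to blood. The SOXC factors (*Sox4*, *Sox11*, *Sox12*) are transcriptional activators, and *Sox4* is needed for early B-cell development. The SOXD factors (*Sox5*, *Sox6*, *Sox13*) have no activation domain of their own and pair through a coiled coil. *Sox6* silences embryonic globin genes in red cell precursors, *Sox5* and *Sox6* act together in cartilage, and *Sox13* marks a class of γδ T cells. *Sox8* is a SOXE factor of neural crest and testis.

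Because the SOXD genes *Sox5* and *Sox6* had the highest differences of the family and SOX factors recognise short A- and T-rich cores, the 250 bases before the listed start sites of the members were read from RefSeq (GRCm38.p6) and searched on both strands for the cores AACAAT and ACAAAG, which are shown in capitals. The sequences of *Sox5*, *Sox13* and 2 of the 6 listed starts of *Sox6* are given 5′ to 3′.
Sox5 (chr6:143947107-143947356, minus strand): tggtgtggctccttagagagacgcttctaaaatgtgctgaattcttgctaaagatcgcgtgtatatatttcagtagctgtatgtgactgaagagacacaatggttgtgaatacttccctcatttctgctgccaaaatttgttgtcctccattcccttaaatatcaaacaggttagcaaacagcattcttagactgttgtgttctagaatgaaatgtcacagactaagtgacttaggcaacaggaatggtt
Sox6, listed start 1 (chr7:116038745-116038994, minus strand): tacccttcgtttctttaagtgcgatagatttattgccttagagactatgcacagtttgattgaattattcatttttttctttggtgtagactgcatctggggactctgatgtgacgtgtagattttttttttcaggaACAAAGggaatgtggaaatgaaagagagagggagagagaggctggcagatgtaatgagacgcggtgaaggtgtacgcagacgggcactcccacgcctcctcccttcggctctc
Sox6, listed start 5 (chr7:115824711-115824960, minus strand): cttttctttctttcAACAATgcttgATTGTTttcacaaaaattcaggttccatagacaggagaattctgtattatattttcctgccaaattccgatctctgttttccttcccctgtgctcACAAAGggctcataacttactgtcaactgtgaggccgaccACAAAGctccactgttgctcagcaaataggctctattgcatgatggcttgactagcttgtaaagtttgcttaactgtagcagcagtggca
Sox13 (chr1:133424213-133424462, minus strand): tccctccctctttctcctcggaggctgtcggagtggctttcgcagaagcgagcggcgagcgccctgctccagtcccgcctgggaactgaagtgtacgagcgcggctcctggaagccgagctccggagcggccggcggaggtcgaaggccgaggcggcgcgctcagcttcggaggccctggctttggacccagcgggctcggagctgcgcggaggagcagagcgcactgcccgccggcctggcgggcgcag
The window of *Sox6* start 1 held 1 match to ACAAAG, beginning at position -113 relative to the start. That of start 5 held 2 matches to AACAAT and 2 to ACAAAG. Of all 6 *Sox6* windows 5 held a match, against 24% of 32851 windows of the same length over all genes. These 6 are starts of 1 gene and are not independent. Their GC content was 34.0% to 60.8%, against 39.6% for *Sox5* and 50.8% to 74.4% for the other members with a window. The part of base composition in the matches was not tested. The single windows of *Sox5* and *Sox13* held none, nor did those of *Sox4*, *Sox8*, *Sox11* and *Sox12*. In all, 7 of the 10 members had a window. A match describes these letters and is not a binding site.

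Values are on the log2 scale, and a gene value is the mean of its probe sets that reached 5.04 on at least 2 of the 4 arrays. Of the 176 probe sets, 104 passed this filter and 72 did not. The nearest probe set inside it belonged to *Sox6* (5.22 and 5.05 in SOX7::GFP high cells, against 4.24 and 4.91 in SOX7::GFP low cells), and the nearest outside it to *Sox17* (4.47 and 4.13 in SOX7::GFP high cells, against 5.11 and 5.01 in SOX7::GFP low cells). A probe set bright in one group alone passes through that group, as 17 did through the SOX7::GFP high arrays and 2 through the SOX7::GFP low arrays. A gene was called at an adjusted p under 0.05 from limma, over all genes tested, with a change of at least 2-fold. Levels of different genes come from different probes and are not set against each other.

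*Sox7* is the sort label, and its values are given as a description. Its gene value was 9.52 and 9.63 in SOX7::GFP high cells and 9.07 and 8.90 in SOX7::GFP low cells. The groups did not overlap, and the means differed by 0.59 on the log2 scale, which is 1.51-fold. Its 9 probe sets fell into distinct levels. On all arrays 4 of them were bright, at 11.14 to 11.63 in SOX7::GFP high cells and 10.48 to 11.28 in SOX7::GFP low cells. The other 5 lay between 1.43 and 5.98 in SOX7::GFP high cells and between 1.95 and 5.92 in SOX7::GFP low cells. Within the bright probe sets the difference ran only from 0.53 to 0.63, and these probe sets were bright in both sorted subpopulations. Both SOX7::GFP high arrays exceeded both SOX7::GFP low arrays in 5 of the 6 probe sets that passed the filter (30.3% of all probe sets kept), the exception being one at 5.92 and 5.78 against 5.92 and 5.71. The annotation used here gives no position within the gene, so transcripts of the transgene and of the endogenous gene cannot be told apart.

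**Figure D1:**
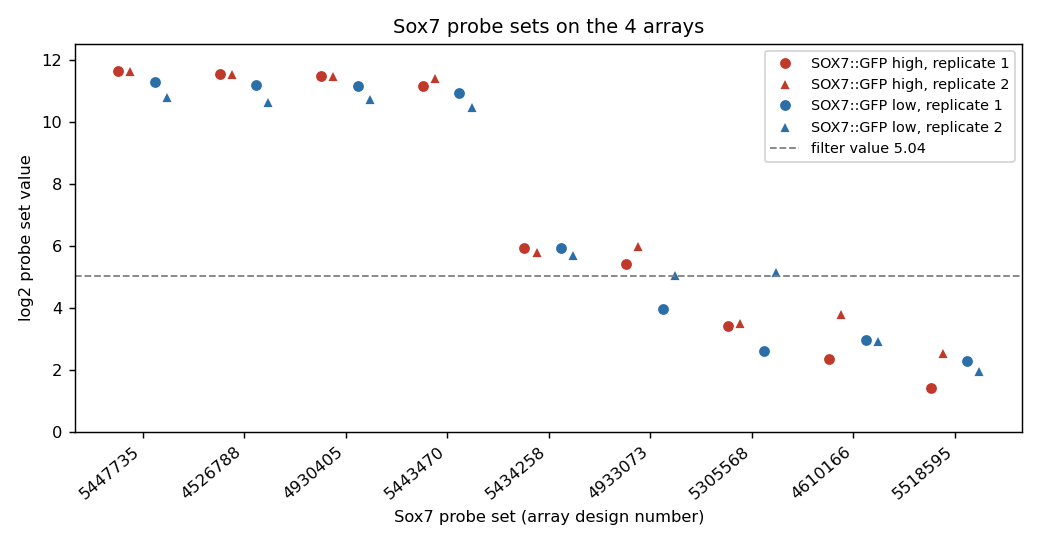
Log2 values of the 9 *Sox7* probe sets (horizontal axis, ordered by level) on the 2 SOX7::GFP high arrays (red) and the 2 SOX7::GFP low arrays (blue), with the filter value of 5.04 dashed. In both groups 4 probe sets lie above 10, and the other 5 lie under 6.

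Among the 9 members other than *Sox7*, only *Sox5* was called. It was higher in SOX7::GFP high cells (3.61% of all genes tested were called higher). *Sox6* was also higher at an adjusted p under 0.05, as were 4.71% of all genes (3.95% were lower), but was just short of 2-fold, and the other 7 passed neither criterion. None was called lower by limma (3.24% of all genes were). The methods' t-test called no member after adjustment, but it called 0 genes among all those tested, so it cannot set the members apart. At an unadjusted p under 0.05 from limma, *Sox4* and *Sox17* were lower and 3 of the 9 were higher, against 23.9% of all genes in either direction. Both SOX7::GFP high arrays lay above both SOX7::GFP low arrays for *Sox18*, *Sox5*, *Sox6* and *Sox13* (32.2% of all genes), and below them for *Sox17*, *Sox4* and *Sox12* (22.2% of all genes). That is 7 of the 9 genes without overlap, against 54.4% of all genes tested. The median log2 fold change was 0.01 over these 9 genes and 0.05 over all genes. The 10 other *Sox* genes of the mouse on this platform had log2 fold changes of -0.29 to 0.23, and none was called or had an unadjusted p under 0.05 in limma.

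**Figure D2:**
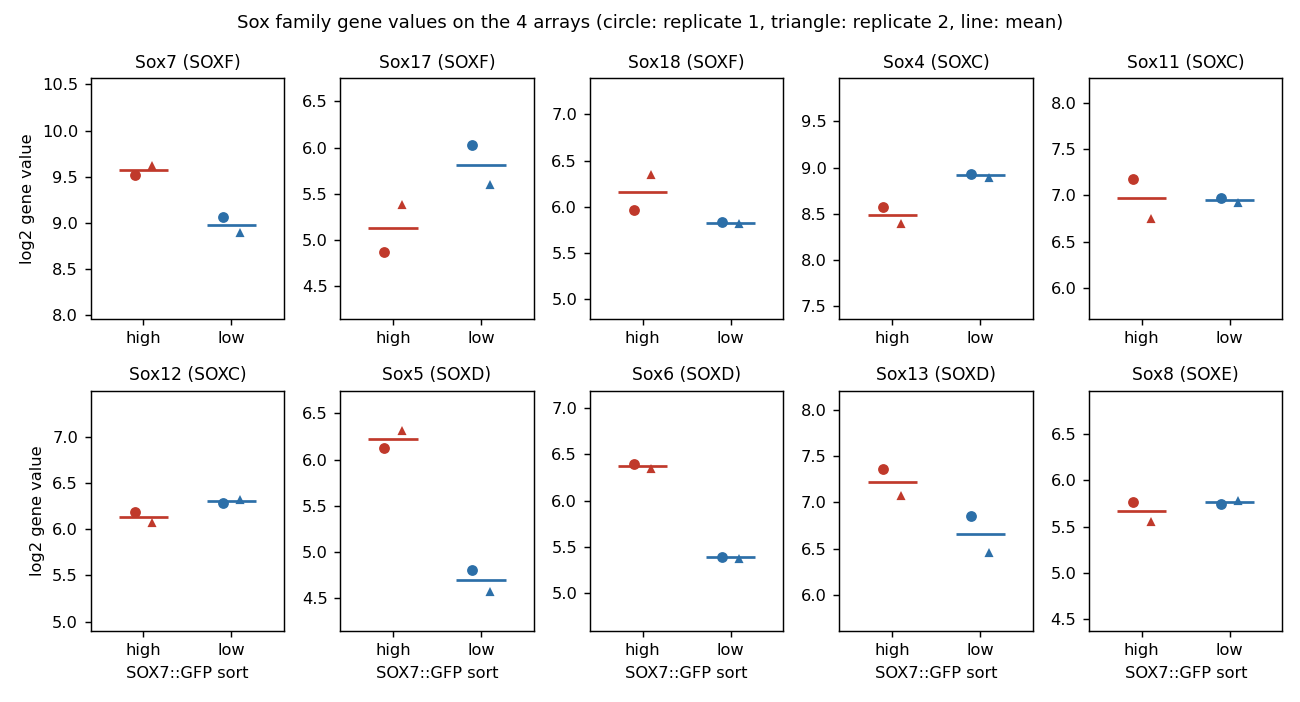
Gene values (log2) of the 10 members on the 4 arrays, SOX7::GFP high in red and SOX7::GFP low in blue, with circles for replicate 1, triangles for replicate 2 and a line at each mean; all panels span the same range of log2 units at different levels. The widest gap is that of *Sox5*, at 6.13 and 6.32 against 4.81 and 4.57.

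*Sox5*, a SOXD factor that forms dimers with *Sox6*, had 6.13 and 6.32 in SOX7::GFP high cells and 4.81 and 4.57 in SOX7::GFP low cells. The groups stood far apart relative to the gap between replicates. The means were 6.22 ± 0.13 and 4.69 ± 0.17 (SD, n = 2 arrays each), a log2 fold change of 1.53 (standard error 0.16, 95% confidence interval 1.11 to 1.96, adjusted p = 0.0113 from limma), or 2.89-fold. The mean of SOX7::GFP low cells lay below the filter value of 5.04. The call was kept without SOX7::GFP low replicate 1 (adjusted p = 0.0406 from limma) and lost without SOX7::GFP high replicate 1 (adjusted p = 0.0642), SOX7::GFP high replicate 2 (adjusted p = 0.0790) or SOX7::GFP low replicate 2 (adjusted p = 0.0546), while the log2 fold change stayed between 1.41 and 1.65. With all 39 probe sets and no filter it was 1.01 (adjusted p = 0.0258 from limma). In bulk RNA, more cells that express a gene and more RNA per cell cannot be told apart.

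Of the 18 *Sox5* probe sets that passed the filter, 17 were higher in SOX7::GFP high cells on average, and 15 without overlap of the arrays (30.3% of all probe sets kept were higher without overlap). By probe set, limma called 5 higher, against 2.25% of all probe sets kept. Probe set 4788559 had the largest difference of the 5, at 6.0 and 6.53 in SOX7::GFP high cells and 2.55 and 3.70 in SOX7::GFP low cells (log2 difference 3.14, adjusted p = 0.0401 from limma). Probe set 5600498 was at 7.55 and 7.59 in SOX7::GFP high cells and 5.38 and 5.99 in SOX7::GFP low cells. In contrast, probe set 4996834 was at 7.24 and 7.21 in SOX7::GFP high cells and 6.89 and 7.21 in SOX7::GFP low cells, groups that overlapped. Passing the filter favoured probe sets that were bright in one group, and 6 of the 18 reached 5.04 on both SOX7::GFP high arrays and on neither SOX7::GFP low array. Over the 6 that reached it on all 4 arrays the median difference was 0.80, which is under 2-fold. Of the 21 dim probe sets, which the filter left out, 16 also had a positive difference, with a median of 0.57.

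*Sox6*, its SOXD partner and a repressor of embryonic globin genes, had 6.40 and 6.36 in SOX7::GFP high cells and 5.39 and 5.38 in SOX7::GFP low cells. Replicates differed by less than 0.1 in either group. The log2 fold change of 0.99 (standard error 0.13, 95% confidence interval 0.65 to 1.34, adjusted p = 0.0191 from limma) is 1.99-fold, so that its call turned on the fold threshold. With no filter it was 1.10 and *Sox6* was called. With the filter set on the mean of the 4 arrays it was 0.65, and with the median of its probe sets 0.80, where it no longer passed (adjusted p = 0.0625 from limma). *Sox6* had an adjusted p of 0.0794 to 0.108 in limma with 1 array left out.

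The gene value of *Sox6* averaged probe sets that differed widely in their response. Of 28 probe sets that passed the filter, 10 were higher by 1 or more on the log2 scale and 10 lay within 0.3 of no difference. Probe set 4411453 was at 6.76 and 6.72 in SOX7::GFP high cells and 3.17 and 2.94 in SOX7::GFP low cells (log2 difference 3.68, adjusted p = 0.0143 from limma). Probe set 5497235 was at 8.33 and 8.0 in SOX7::GFP high cells and 4.63 and 4.79 in SOX7::GFP low cells (log2 difference 3.45). These are the 2 largest differences of any *Sox6* probe set. The brightest *Sox6* probe set, 5224974, was at 10.03 and 10.02 in SOX7::GFP high cells and 9.88 and 10.17 in SOX7::GFP low cells, so that its groups overlapped. Limma called 6 *Sox6* probe sets higher, with log2 differences of 1.45 to 3.68, against 2.25% of all probe sets kept. Both SOX7::GFP high arrays were above both SOX7::GFP low arrays in 18 of the 28, and below them in 1, against 30.3% and 21.2% of all probe sets kept. Over the 12 probe sets that reached 5.04 on all 4 arrays the median difference was 0.04, whereas 11 of the 28 reached it on both SOX7::GFP high arrays and on neither SOX7::GFP low array. Of the 13 dim probe sets left out, 12 had a positive difference, with a median of 1.55.

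Whether probe sets of one gene changed by different amounts was tested in limma with diffSplice over 16298 genes. *Sox6* passed (F = 6.91, adjusted p = 9.17e-08), as did 6.23% of all genes and 8.85% of those with 10 or more probe sets kept. The test took in the 11 probe sets that passed the filter through the SOX7::GFP high arrays alone, 4411453 and 5497235 among them, beside the 12 that were above it on all arrays. With no filter *Sox6* also passed (adjusted p = 3.43e-09). It passed as well without any one of the 4 arrays, with an adjusted p of at most 0.00831. The other 9 members did not pass, with *Sox5* at an adjusted p of 0.191 and *Sox17* at 0.208. *Sox5* passed without SOX7::GFP low replicate 1 (adjusted p = 0.00102) or SOX7::GFP low replicate 2 (adjusted p = 0.00872), and *Sox17* without SOX7::GFP high replicate 2 (adjusted p = 0.0388). The annotation used here places no probe set on an exon, so the probe sets were not assigned to transcripts.

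**Figure D3:**
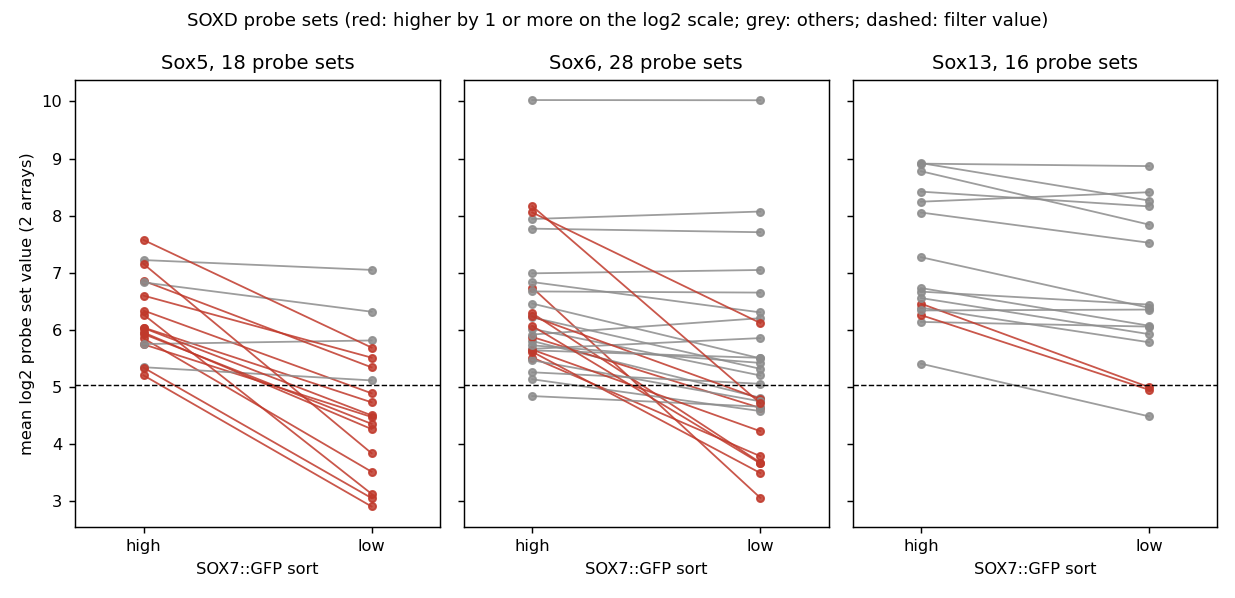
Mean log2 value of each probe set kept for *Sox5* (18), *Sox6* (28) and *Sox13* (16) in SOX7::GFP high cells (left) and SOX7::GFP low cells (right), joined by a line that is red where the difference is 1 or more, with the filter value of 5.04 dashed. *Sox6* combines 10 red lines with 10 that lie within 0.3 of level, whereas *Sox5* has 14 red lines and *Sox13* has 2.

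*Sox13*, the third SOXD gene, had 7.36 and 7.08 in SOX7::GFP high cells and 6.85 and 6.46 in SOX7::GFP low cells. Its groups did not overlap, but the replicates of either group lay further apart than the nearest arrays of the 2 groups. The log2 fold change of 0.56 (standard error 0.20, 95% confidence interval 0.04 to 1.09) did not pass (adjusted p = 0.184 from limma). Of its 16 probe sets kept, 14 had a positive difference and none was called. An unadjusted p under 0.05 from limma was reached by 5 of the 16, a share not computed over all probe sets kept. Probe set 5430611 was at 8.93 and 8.62 in SOX7::GFP high cells and 8.10 and 7.59 in SOX7::GFP low cells, while probe set 4535462 was at 8.93 and 8.89 in SOX7::GFP high cells and 8.98 and 8.75 in SOX7::GFP low cells.

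*Sox4*, the SOXC factor of early B-cell development, had 8.57 and 8.40 in SOX7::GFP high cells and 8.93 and 8.90 in SOX7::GFP low cells. All of its 12 probe sets were kept, and each had a negative difference, from -0.89 to -0.06. In 7 of the 12 both SOX7::GFP high arrays were below both SOX7::GFP low arrays (21.2% of all probe sets kept). The log2 fold change of -0.43 (standard error 0.14, 95% confidence interval -0.80 to -0.06) did not pass (adjusted p = 0.160 from limma), and that interval excludes a 2-fold difference. Leaving out each array in turn gave values between -0.51 and -0.35. Probe set 5174835 was at 11.16 and 11.12 in SOX7::GFP high cells and 11.87 and 11.65 in SOX7::GFP low cells, while probe set 5512579 was at 11.18 and 11.02 in SOX7::GFP high cells and 11.14 and 11.18 in SOX7::GFP low cells, with overlap. Genes of the B lineage moved in the same direction and by far more. All 8 B-lineage markers (*Pax5*, *Ebf1*, *Vpreb1*, *Vpreb3*, *Igll1*, *Cd79a*, *Cd79b* and *Blnk*) were called lower, against 3.24% of all genes tested. Their mean level was 5.82 and 7.10 in SOX7::GFP high cells and 10.63 and 10.55 in SOX7::GFP low cells. The part of the B lineage in the *Sox4* difference was not tested.

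The other SOXC genes did not pass. *Sox11*, a factor of neural development, had 7.18 and 6.75 in SOX7::GFP high cells and 6.98 and 6.93 in SOX7::GFP low cells, so that the SOX7::GFP high arrays lay on either side of the SOX7::GFP low arrays. Its log2 fold change was 0.01 (95% confidence interval -0.49 to 0.52). Of its 12 probe sets only 4 were kept, and 7 of the 8 dim ones had a positive difference. *Sox12* had 6.19 and 6.07 in SOX7::GFP high cells and 6.28 and 6.33 in SOX7::GFP low cells (log2 fold change -0.17, 95% confidence interval -0.53 to 0.19). With no filter it was 0.09, of opposite sign. *Sox8*, the SOXE gene, had 5.77 and 5.56 in SOX7::GFP high cells and 5.74 and 5.78 in SOX7::GFP low cells (log2 fold change -0.10, 95% confidence interval -0.49 to 0.29), and the difference was 0.13 with no filter. These 3 intervals exclude a 2-fold difference in either direction only for the mean of the probe sets kept, at the settings used here. Differences of the probe sets left out ran from -0.31 to 1.62 for *Sox11*, -0.05 to 1.41 for *Sox12* and -0.91 to 2.09 for *Sox8*.

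*Sox17*, the SOXF factor of fetal blood stem cells and arteries, had 4.87 and 5.39 in SOX7::GFP high cells and 6.03 and 5.60 in SOX7::GFP low cells. The groups did not overlap, but the replicates of either group lay further apart than the nearest arrays of the 2 groups. Its log2 fold change of -0.68 (standard error 0.25, 95% confidence interval -1.35 to -0.02) did not pass (adjusted p = 0.198 from limma). One of its 6 probe sets kept decided the size. That probe set, 5553980, was at 1.46 and 4.53 in SOX7::GFP high cells and 6.44 and 5.82 in SOX7::GFP low cells, and the mean difference over the other 5 was -0.19. Among the 12 dim probe sets 3 had a positive difference. *Sox18*, the SOXF factor of vessels and lymphatics, had 5.97 and 6.36 in SOX7::GFP high cells and 5.83 and 5.82 in SOX7::GFP low cells. Only 2 of its 6 probe sets were kept, and in both of them the arrays overlapped between groups. The log2 fold change of 0.34 (standard error 0.18, 95% confidence interval -0.14 to 0.81) did not pass (adjusted p = 0.353 from limma). With no filter it was 0.045, and 1 of the 4 dim *Sox18* probe sets had a positive difference.

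**Figure D4:**
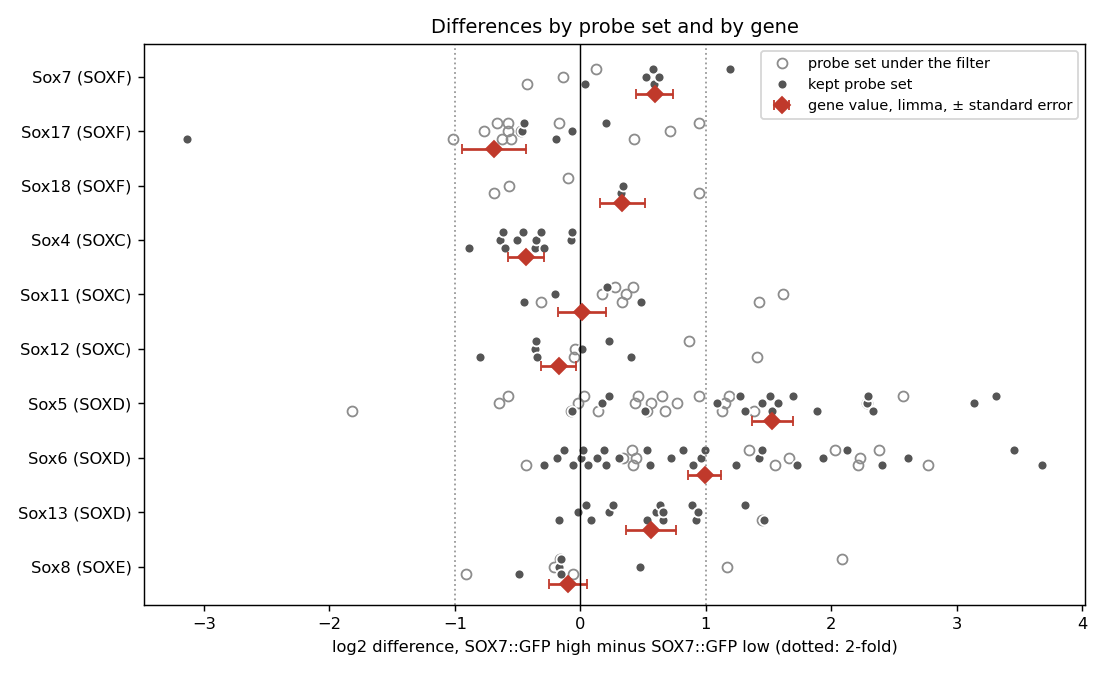
Log2 differences (SOX7::GFP high minus SOX7::GFP low) of the members' 104 probe sets kept (filled), the 72 under the filter (open) and the gene value with its standard error from limma (red diamonds); dotted lines mark 2-fold. All 12 *Sox4* probe sets lie left of 0, those of *Sox6* spread from -0.29 to 3.68 among the probe sets kept, and a single *Sox17* probe set lies at -3.14.

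Over the family, 11 of the 104 probe sets kept were called higher, 5 of *Sox5* and 6 of *Sox6* (2.25% of all probe sets kept were). None was called lower by limma (1.77% of all probe sets kept were). Of the 11, only 5007261 and 5600498 of *Sox5* and 5359496 of *Sox6* reached the filter value on all arrays. The rest reached it on the SOX7::GFP high arrays alone, and so passed the filter through that group. With the filter on the mean of the arrays, 6 were called higher. How often calls over all probe sets kept rest on such probe sets was not computed. At an unadjusted p under 0.05 from limma, 32 of the 104 were higher and 5 lower. That share was not computed over all probe sets kept (over all genes it was 23.9% in either direction). Without overlap of the arrays 50 of the 104 were higher, 12 were lower and 42 overlapped, against 51.5% without overlap among all probe sets kept. Probe sets called higher numbered 0 when either SOX7::GFP high array was left out, 5 when SOX7::GFP low replicate 1 was, and 3 when its replicate 2 was.

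Other genes of the pathway were taken from a list of 25 genes that SOXF factors are known to control or that act in vessels with them, of which 23 were measured. In SOX7::GFP high cells 10 were called higher and 1 lower (3.61% and 3.24% of all genes), and 12 did not pass. The list was chosen with earlier results of these data known. *Cdh5*, which encodes VE-cadherin, was at 7.70 and 8.45 in SOX7::GFP high cells and 5.13 and 5.48 in SOX7::GFP low cells (2.78 on the log2 scale with a standard error of 0.30, limma adjusted p = 0.0114). The Notch effectors *Hey1* (2.61, adjusted p = 0.00427) and *Hey2* (2.54, adjusted p = 0.00403), the angiopoietin receptor gene *Tek* (2.73), its relative *Tie1* (2.40) and the adhesion gene *Esam* (2.72) were also higher. *Fgf3*, a fibroblast growth factor gene, was at 6.80 and 7.31 in SOX7::GFP high cells and 4.97 and 5.01 in SOX7::GFP low cells (2.07, adjusted p = 0.0105). The integrin gene *Itga2b* (2.40), the ephrin gene *Efnb2* (1.96) and the semaphorin and VEGF co-receptor gene *Nrp1* (1.35, adjusted p = 0.0384) completed the rises. *Kdr*, a VEGF receptor gene, was lower, at 4.34 and 4.46 in SOX7::GFP high cells and 5.99 and 6.06 in SOX7::GFP low cells (-1.63, adjusted p = 0.00702). *Hey2* was at 6.04 and 5.95 in SOX7::GFP high cells and 3.41 and 3.50 in SOX7::GFP low cells. Both SOX7::GFP low values lay under 5.04 for *Hey1*, *Hey2*, *Tek*, *Efnb2* and *Fgf3*, as did both SOX7::GFP high values for *Kdr*. *Notch1* (-0.50), *Dll4* (-0.27) and *Prox1* (0.28), also named as SOXF targets, did not pass. Nor did the VEGF receptor genes *Flt1* (-0.31) and *Flt4* (0.16). The median of the 23 genes was 0.16, against 0.05 over all genes tested. Leaving out either SOX7::GFP high array left 5 genes called higher and *Kdr* not called, and leaving out either SOX7::GFP low array left 7.

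A list of 24 genes, referred to as partners, held partners and cofactors of SOX proteins. It also held downstream Wnt genes and genes linked to SOXD factors. Of the 24, 23 were measured, of which 2 were called higher and 4 lower (3.61% and 3.24% of all genes), and 17 did not pass. The Wnt effectors of the TCF and LEF family, which also carry a high mobility group domain, went in both directions. *Tcf7* was at 10.53 and 10.50 in SOX7::GFP high cells and 6.29 and 6.75 in SOX7::GFP low cells (3.99 on the log2 scale with a standard error of 0.20, limma adjusted p = 0.00362). *Lef1* was at 5.27 and 6.25 in SOX7::GFP high cells and 9.74 and 9.67 in SOX7::GFP low cells (-3.94, adjusted p = 0.00745), and *Tcf7l2* was lower too (-1.33, adjusted p = 0.0260). *Axin2*, a feedback inhibitor of Wnt signalling, was at 5.94 and 5.99 in SOX7::GFP high cells and 4.82 and 4.34 in SOX7::GFP low cells (1.38, adjusted p = 0.0239). Both of its SOX7::GFP low values lay under 5.04, and 8 of its 16 probe sets were kept. *Bcl11a*, which acts with *Sox6* on globin genes and is also a B-lineage factor, was lower (-1.84, adjusted p = 0.0260), as was *Mef2c* (-1.25, adjusted p = 0.0158), whose protein partners SOX18. *Ctnnb1*, which encodes β-catenin, was at 9.54 and 9.63 in SOX7::GFP high cells and 8.84 and 8.96 in SOX7::GFP low cells, and did not pass (0.68, adjusted p = 0.0553). Nor did *Tle1* (0.83), *Pou2f1* (-0.70), *Pou2f2* (-0.67), *Ctbp2* (0.53) and *Rbpj* (0.37), whose arrays did not overlap between groups. The median was -0.01. Leaving out any one array left 1 gene called lower, and left 1 called higher except that 2 were when SOX7::GFP low replicate 1 was left out.

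**Figure D5:**
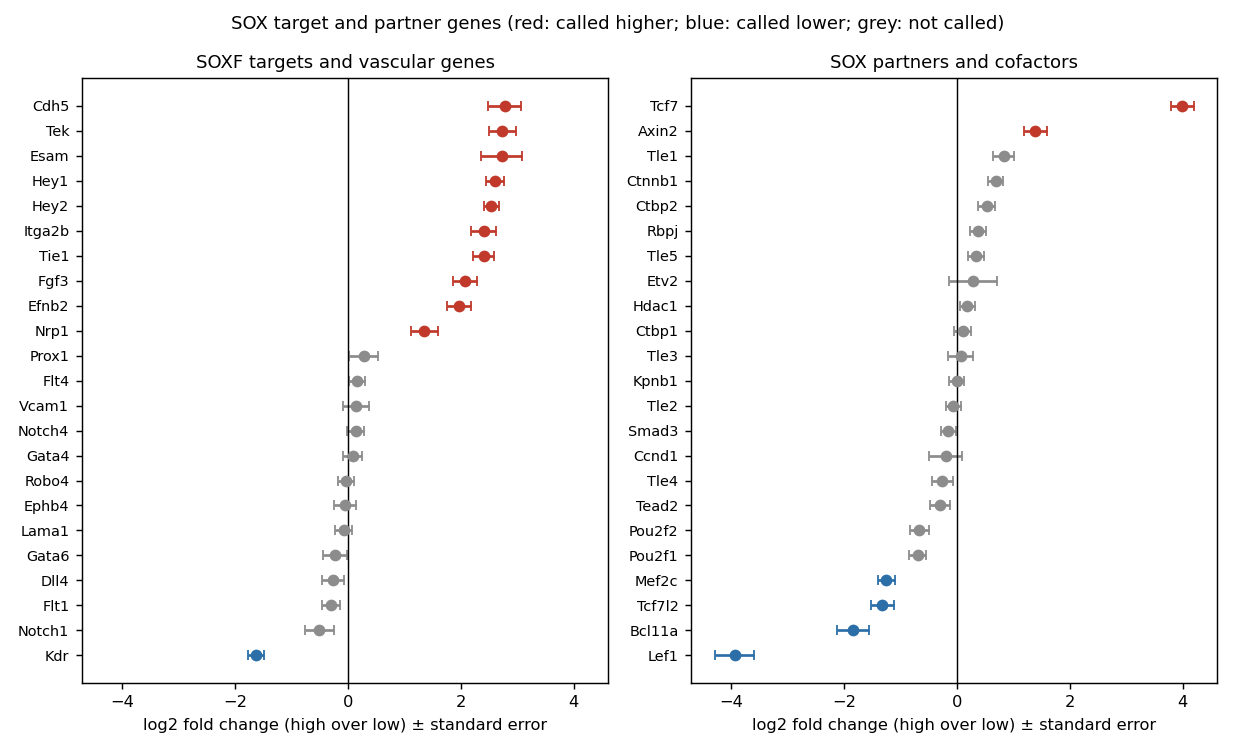
Log2 fold changes (SOX7::GFP high over SOX7::GFP low) with standard errors from limma for the measured SOXF targets and vascular genes (left, 23) and SOX partners, cofactors and linked genes (right, 23); red marks genes called higher, blue those called lower and grey the rest. *Tcf7* (3.99) and *Lef1* (-3.94) lie at opposite ends of the right panel.

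The arrays had medians of 3.90 to 3.91 over 1236087 probe sets, and gene values correlated at 0.961 between SOX7::GFP high arrays, 0.958 between SOX7::GFP low arrays and 0.859 to 0.865 between groups, a description across genes. The 6 haematopoietic markers lay between 6.10 and 9.49 on all arrays, and 1 of them was called higher (3.61% of all genes were). This was *Tal1*, at 7.02 and 7.41 in SOX7::GFP high cells and 6.21 and 6.10 in SOX7::GFP low cells (limma adjusted p = 0.0377). The other 5 were not called. Of these, *Lyl1* (-0.52), *Runx1* (-0.38) and *Vav1* (-0.25) were lower without overlap of the arrays. *Ptprc* (0.33) was higher without overlap, and the arrays of *Spi1* overlapped. Markers of other cells that could carry *Sox* transcripts were read beside the members. Of 9 measured stromal markers limma called none, and 1 had an unadjusted p under 0.05 (23.9% of all genes did). Their mean levels were 6.97 and 6.79 in SOX7::GFP high cells and 6.95 and 6.30 in SOX7::GFP low cells. Of 5 measured erythroid markers none was called (0 at an unadjusted p under 0.05), with 6.25 and 6.71 in SOX7::GFP high cells and 5.94 and 6.79 in SOX7::GFP low cells. Of 6 measured genes listed for T cells and γδ T cells, 2 were called lower, against 3.24% of all genes. These were *Blk* (-2.37), which is also a B-lineage gene, and *Maf* (-2.25). *Cd3e* (0.07, with overlap of the arrays), *Cd3d* (-0.46), *Cd247* (-0.45) and *Il17a* (-0.43) were not called. Mean levels of the 6, with *Blk* and *Maf* included, were 5.58 and 5.48 in SOX7::GFP high cells and 6.60 and 6.43 in SOX7::GFP low cells. Of 6 megakaryocyte markers 4 were called higher, and of 5 mast cell and basophil markers 3 (3.61% of all genes were called higher and 3.24% lower). Endothelial markers were mixed. Of 7 measured, 3 were called higher and 1 lower (*Kdr*), while *Eng* (0.50), *Emcn* (0.04) and *Vwf* (0.38) were not called. *Cdh5*, *Tie1*, *Kdr* and *Itga2b* are also in the list of SOXF targets and vascular genes. *Kit*, of the mast cell and basophil list, encodes cKIT, whose level was part of the sort. It was at 10.22 and 9.91 in SOX7::GFP high cells and 9.24 and 9.12 in SOX7::GFP low cells. The difference (0.89 on the log2 scale, limma adjusted p = 0.0464) was short of 2-fold, so *Kit* was not called. The mean megakaryocyte level was 7.67 and 8.23 in SOX7::GFP high cells and 5.77 and 6.27 in SOX7::GFP low cells, the mean mast cell and basophil level 9.83 and 9.15 in SOX7::GFP high cells and 7.50 and 7.45 in SOX7::GFP low cells, and the mean endothelial level 6.90 and 7.23 in SOX7::GFP high cells and 6.17 and 6.28 in SOX7::GFP low cells. The part of these cells in the *Sox* differences was not tested.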

How the data were processed

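RNA of 2 SOX7::GFP high and 2 SOX7::GFP low samples was measured on mouse exon arrays. Values for 1236087 probe sets were deposited by the authors on the log2 scale, after background adjustment and normalization by robust multi-array averaging (RMA, version not given in the sources used here), with no detection filter in that table. Precision is limited by having 4 arrays. Platform annotation named 321091 probe sets for 1 gene and 7796 for several, and 907200 are unnamed here. Older names (4259) were updated through unique synonyms. The filter at 5.04 stood in for detection scores not used here and kept 191615 probe sets. The mean per gene was fitted with limma 3.58.1 in R 4.3.3 by group, with Benjamini-Hochberg adjustment over all genes, tested on simulated data. Members and lists were chosen with earlier results of these data known. Genes named were all members and, of the target and partner lists, every called gene and up to 6 others by largest change without overlap. *Dll4*, *Prox1* and single markers were named after their values were seen. Alternatives covered filters, summaries, normalization, tests, a replicate block and left-out arrays.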

Additional observations from a re-analysis of the deposited data

How the results depend on the processing

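Members called higher numbered 2 with no filter, a stricter filter of 6, centring on reference genes or no fold threshold (*Sox5* and *Sox6*), 0 with the methods' t-test, and 0 to 1 with 1 array left out. No member was called lower in any alternative run. The t-test called 0 genes in all, 0 SOXF targets in either direction and 0 partners in either direction. With 1 array left out, all genes called numbered 311 to 717 (1286 with all arrays), SOXF targets 5 to 7 higher and 0 to 1 lower, and partners 1 to 2 higher and 1 lower. Partners called higher numbered 1 with the stricter filter, the filter on the mean or the median of probe sets. *Sox* probe sets called higher numbered 0 with no filter, 7 with the stricter filter, 6 with the filter on the mean, 5 with the replicate block and 0 to 5 with 1 array left out. Members whose probe sets differed numbered 2 with no filter (*Sox5* and *Sox6*) and 1 to 2 on leaving out an array. With no filter the log2 fold change turned its sign for *Sox12* (0.089) and *Sox8* (0.13). On leaving out an array it ran from -0.20 to 0.23 for *Sox11*, negative without SOX7::GFP high replicate 1 and, at -0.0091, without the second SOX7::GFP low array, and from -0.20 to 0.0081 for *Sox8*, positive without SOX7::GFP high replicate 2. The cause was not tested. Other members kept their sign throughout. Replicate numbers are shared by the labels, but no source used here says whether same-numbered arrays came from one culture. Deviations of same-numbered arrays correlated at 0.104 across genes, and with 2 pairs this cannot decide whether the arrays are paired. With the number as a replicate block 1346 genes and 1 member were called.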
